A study of Tachysurus fulvidraco x Tachysurus vachelli with 6 samples.

Results

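Heat shock proteins and their partner chaperones in the liver of hybrid yellow catfish were taken as all genes whose deposited description contains the words heat shock, T-complex protein 1 or dnaJ homolog. This rule found 134 of 28288 genes, of which 72 have only a locus name (LOC and a number). The study asked how dietary *A. senticosus*, the plant known as Siberian ginseng, acts on the liver of the hybrid of *Tachysurus fulvidraco* females and *Pseudobagrus vachellii* males. Fish in the T_liver group had been fed a diet with 4 g/kg *A. senticosus* powder and fish in the C_liver group the same base diet with 0 g/kg, both for 56 days (8 weeks) and both starved before sampling. Each group gave 3 poly(A) RNA libraries. According to the methods the RNA of a group was mixed before library preparation and the number of fish per library is not stated, so that n counts libraries and P values measure the spread between libraries.

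Molecular chaperones bind unfolded or partly folded proteins and keep them from clumping. HSP70 proteins hold short stretches of a client in cycles driven by ATP, and J-domain proteins (the DNAJ families) bring clients to them and start the cycle, while HSP110 proteins release the spent nucleotide. HSP90 finishes the folding of kinases and steroid receptors, small heat shock proteins hold clients without ATP, and the T-complex (also called TRiC or CCT) is a double ring that folds actin and tubulin. HSP60 with its HSP10 lid does the same kind of work inside mitochondria, and heat shock factors switch on many of these genes under proteotoxic stress. In fish liver, chaperone transcripts are widely used as readouts of heat, crowding and diet.

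Of the 134 genes, 70 had a mean FPKM (fragments per kilobase of transcript and per 1e+06 reads) of at least 1 over the 6 libraries and were tested with all 11521 genes above that level. The other 64 were not tested, 37 of them because no library held a count and 27 because their level was lower. Levels within a gene are given below as CPM, counts per 1e+06 counts after TMM scaling (edgeR's correction for library composition), and log2 fold changes are T_liver over C_liver. A gene was called DE where its log2 fold change was 1 or more in size and its P, before adjustment, was under 0.05 in edgeR's quasi-likelihood test. Beside the P of single genes that of an exact 2-sided permutation test is given, which cannot go below 0.1 with 3 libraries against 3.

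The deposited counts on genes summed to between 44153673 and 49343836 in the T_liver libraries and between 46303095 and 51459627 in the C_liver libraries. Hepatocyte markers were abundant in sum in every library, with 22 of 23 listed genes tested. They summed to 83510 to 123270 CPM in T_liver and 88722 to 127910 CPM in C_liver. The apolipoprotein gene LOC113652856 alone had 33010 to 69031 CPM in T_liver and 46050 to 80561 CPM in C_liver. Of the 22, 1 was DE higher (against 1.49% of all tested genes), the haptoglobin gene *hp*. It had 9246, 128 and 1939 CPM in T_liver, against 110, 229 and 315 CPM in C_liver (log2 fold change 4.11, SE 1.32). Transcripts of exocrine pancreas enzymes moved with the groups. Of 22 tested markers, 21 were higher in T_liver (against 49.6% of all tested genes) and 15 were DE higher (against 1.49%). Without *cpb2*, 20 of 21 were higher. Their sum, without the liver enzyme *cpb2*, was 1126, 363 and 839 CPM in T_liver against 98.5, 77.2 and 305 CPM in C_liver, and 5 of the 30 listed genes had no count in any library. Red blood cell markers summed to 563, 1337 and 249.5 CPM in T_liver and to 427, 442 and 2068 CPM in C_liver. Only 1 of 23 skeletal muscle markers was tested. Rank correlations over the 11521 tested genes were 0.825 to 0.885 between C_liver replicate 3 and the other libraries. The other pairs of libraries had 0.882 to 0.920, slightly overlapping the range of C_liver replicate 3. The part of these transcripts and of this library in the differences below was not tested, beyond the values given without single libraries. In such bulk samples, fewer cells of a type and less RNA per cell cannot be told apart.

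Among the chaperone genes tested, 1 was DE higher and 1 was DE lower in T_liver. The small heat shock protein gene *hspb8* was the lower one, and the J-domain protein gene *dnajc14* the higher one. Over all tested genes, 1.49% were DE higher and 1.61% DE lower, so that 1 of 70 in each direction (1.43%) was close to the background. At an unadjusted P under 0.05 with no limit on the fold change, 1 chaperone gene was higher, against 3.17% of all genes, and 2 were lower (*hspb8* and *dnajc11*), against 3.47% of all genes. No chaperone gene had a Benjamini-Hochberg adjusted P under 0.05 by the quasi-likelihood test of edgeR (0 of 70, smallest adjusted P 0.676), as for all genes (0 of 11521, 0%). DESeq2 on the same counts gave 38 genes in all at this level and 0 chaperone genes. It gave no adjusted P for some chaperone genes, among them *hspb8* (unadjusted P = 4.14e-05 in DESeq2), so its 0 does not cover these.

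The direction of the remaining genes was mixed. By sign alone, 31 of 70 were higher in T_liver (44.3%, against 49.6% of all genes) and 39 were lower (55.7%, against 50.4%). The median log2 fold change of the chaperone genes was -0.10, beside -0.0047 over all tested genes. All 3 T_liver libraries lay above all 3 C_liver libraries in 5 chaperone genes (7.14%, against 5.96% of all genes), namely *tcp1*, *cct6a*, *hsf2*, *dnajc8* and *dnajc14*. They lay below all 3 C_liver libraries in 4 (5.71%, against 7.1% of all genes), namely *hspb8*, *dnajc11*, *trap1* and *ahsa1*. The exact permutation test gave its smallest possible p, 0.1, for each of these 9 genes. This value follows from the lack of overlap by which they were listed and adds nothing to it.

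**Figure D1:**
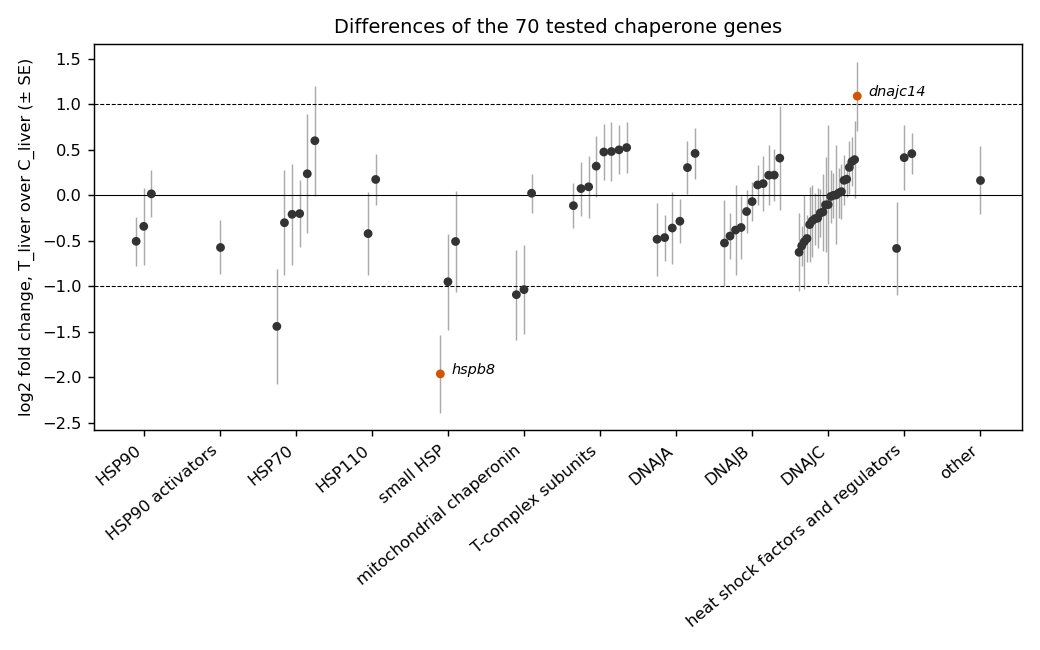
Log2 fold change of T_liver over C_liver (vertical axis) for each of the 70 tested chaperone genes, ordered within its class (horizontal axis), with bars of 1 SE from edgeR's quasi-likelihood fit and dashed lines at 1 and -1. The 2 DE genes are in orange, *hspb8* at -1.96 and *dnajc14* at 1.09, and 7 of 8 T-complex subunits lie above 0.

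Transcript levels of the chaperones spanned a wide range in this liver. On the FPKM scale, which allows levels of different genes to be compared, *hsp90ab1* was highest with a mean of 438.5 FPKM over the 6 libraries. The heat shock cognate gene LOC113645389 followed with 308 FPKM. Of the 11 chaperone genes with at least 50 FPKM, 7 were T-complex subunits, and the others beside the pair just named were LOC113643689 (92.7 FPKM), a further heat shock cognate gene, and the mitochondrial HSP10 gene *hspe1* (87.9 FPKM). In contrast, the highest gene of the small heat shock protein class, LOC113640406, had 2.95 FPKM, next to 2.94 FPKM for *hspb1*. The highest J-domain protein gene had 33.3 FPKM.

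**Figure D2:**
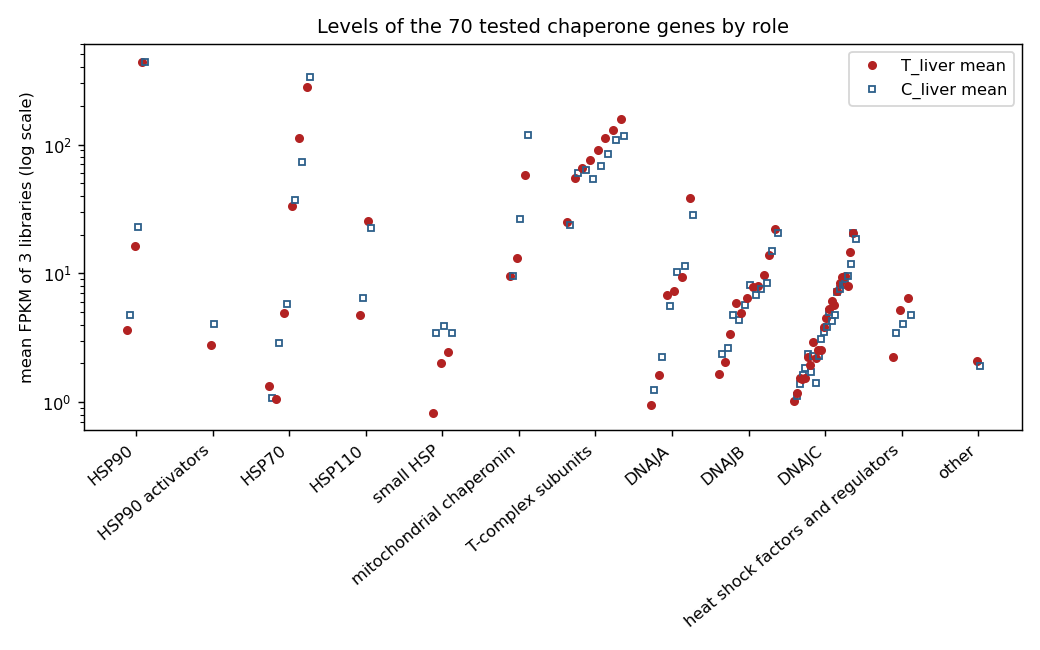
Mean FPKM of the 3 libraries of each group (vertical axis, log scale) for the 70 tested chaperone genes by class (horizontal axis), with T_liver as filled circles and C_liver as open squares. *hsp90ab1* and the heat shock cognate LOC113645389 head the scale at means of 438.5 and 308 FPKM over the 6 libraries. In such means the 8 T-complex subunits lie between 24.3 and 138 FPKM. The 3 tested genes placed in the small heat shock protein class lie below 3 FPKM in their means over the 6 libraries.

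The small heat shock proteins held the largest difference among the tested chaperone genes, in *hspb8*, a gene that passed the FPKM limit through its C_liver level. *hspb8* encodes a small heat shock protein which in mammals hands misfolded clients to autophagy together with the co-chaperone BAG3. Its gene lies on scaffold NW_020847937.1 from 4606500 to 4615845 on the minus strand, in the coordinates of the deposited table, whose genome build is not given in the sources used here. It had 92, 76 and 80 counts in the T_liver libraries, against 463, 470 and 144 counts in the C_liver libraries. This corresponded to 2.21, 1.69 and 1.499 CPM in T_liver, against 8.72, 8.63 and 3.66 CPM in C_liver. Every T_liver library was below every C_liver library, and C_liver replicate 3 lay between the T_liver libraries and the other C_liver libraries. The transcript level averaged 1.80 ± 0.371 CPM in T_liver and 7.00 ± 2.89 CPM in C_liver (SD, n = 3 each). On the FPKM scale the means were 0.828 in T_liver, under the limit of 1 for testing, and 3.42 in C_liver. The log2 fold change was -1.96 (SE 0.43). P was 0.00219 before and 0.676 after adjustment in edgeR's quasi-likelihood test, and 0.1 in the exact permutation test. Without single libraries the log2 fold change lay between -2.26 and -1.77.

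*hspb1*, which encodes HSP27, a small heat shock protein that also binds actin filaments, was not a DE gene. It had 1.76, 4.92 and 1.89 CPM in T_liver, against 4.84, 3.56 and 8.17 CPM in C_liver. T_liver replicate 2 was above 2 of the C_liver libraries, so the groups overlapped. The log2 fold change was -0.95 (SE 0.53), and it was -1.58 and past both thresholds without T_liver replicate 2 but -0.55 and not DE without C_liver replicate 3. LOC113640406, described as heat shock protein 67b2, had a log2 fold change of -0.51 (SE 0.55). It was placed in this class by that wording alone, and whether it encodes a small heat shock protein was not checked. The other 8 genes of this class were below the FPKM limit, and 2 of them had no count in any library. One of these low genes, the *hspb1*-like LOC113655159, had 368 counts in T_liver replicate 1 but 39 and 57 in the other T_liver libraries, against 46, 129 and 4 counts in the C_liver libraries. It was singled out after its values were seen. Together the 11 genes of the class summed to 11.5 ± 5.67 CPM in T_liver and 18.3 ± 0.746 CPM in C_liver (SD, n = 3 each). By library the sums were 17.6, 10.7 and 6.33 CPM in T_liver, against 17.5, 18.9 and 18.5 CPM in C_liver. T_liver replicate 1 was slightly above C_liver replicate 1, so the groups overlapped.

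Among the J-domain proteins, 16 of 40 tested genes were higher and 24 lower in T_liver, and the median log2 fold change was -0.10. Only *dnajc14* met the criteria. In mammals its product sits in the membrane of the endoplasmic reticulum (ER) and takes part in the export of receptors. The gene lies on scaffold NW_020848002.1 from 548348 to 557598 on the plus strand. Its levels were 13.1, 10.4 and 16.1 CPM in T_liver, against 7.44, 7.86 and 3.26 CPM in C_liver. The groups did not overlap, and C_liver replicate 3 was the lowest of the 6 libraries. The mean was 13.2 ± 2.86 CPM in T_liver and 6.18 ± 2.54 CPM in C_liver (SD, n = 3 each). P was 0.0229 before and 0.676 after adjustment in edgeR's quasi-likelihood test, and 0.1 in the exact permutation test. The log2 fold change of 1.09 (SE 0.38) was close to the threshold, and it was 0.79 without C_liver replicate 3 and 0.92 without T_liver replicate 3, in both cases no longer a DE gene.

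*dnajc11*, whose human product is a mitochondrial membrane protein linked to the folding of the cristae, had the next smallest P of the DNAJ genes. It had 21.8, 24.4 and 22.7 CPM in T_liver, against 38.1, 27.1 and 35.9 CPM in C_liver. The T_liver libraries lay close together and below all C_liver libraries. Its log2 fold change of -0.56 (SE 0.22), with P = 0.0405 in edgeR's test and 0.1 in the exact permutation test, did not reach the fold change threshold. *dnaja3*, a mitochondrial partner of HSP70, had a log2 fold change of -0.46 (SE 0.25) with overlapping groups.

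The most abundant gene of the class was *dnaja2*, a main cytosolic J-domain protein. Its levels were 83.1, 69.1 and 98.1 CPM in T_liver, against 77.6, 57.6 and 46.8 CPM in C_liver. The highest C_liver library was above the lowest T_liver library, and the log2 fold change was 0.46 (SE 0.28). *dnajc8*, a nuclear protein found with the splicing machinery, had 31.1, 29.5 and 33.5 CPM in T_liver, against 26.9, 27.1 and 29.1 CPM in C_liver. This small difference (log2 fold change 0.18, SE 0.20) left no overlap between the groups, since the libraries of each group lay close together. *dnajc22*, with 17.5 FPKM the next in level among the DNAJC genes, had a log2 fold change of -0.47 (SE 0.26).

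The remaining tested DNAJ genes had log2 fold changes between -0.63 and 0.41, and none had a P under 0.05. Among the best expressed DNAJB genes, LOC113639892 (*dnajb12*-like, an ER membrane J-domain protein) and LOC113640349 (*dnajb6*-like, which holds back aggregation of polyglutamine proteins) differed by 0.11 and -0.07. *dnajb9*, an ER partner of BiP, differed by 0.22. *dnaja4* differed by -0.28. It overlaps LOC113660169, another gene described as DNAJA4, by 554 bp on the opposite strand, and whether strand was used in counting is not stated, so that reads of this pair may not be told apart. Of the 11 untested DNAJ genes, *dnajb4* was singled out after its values were seen, with 204 counts in T_liver replicate 3 and no count in the other T_liver libraries, against 22, 4 and 0 counts in C_liver.

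**Figure D3:**
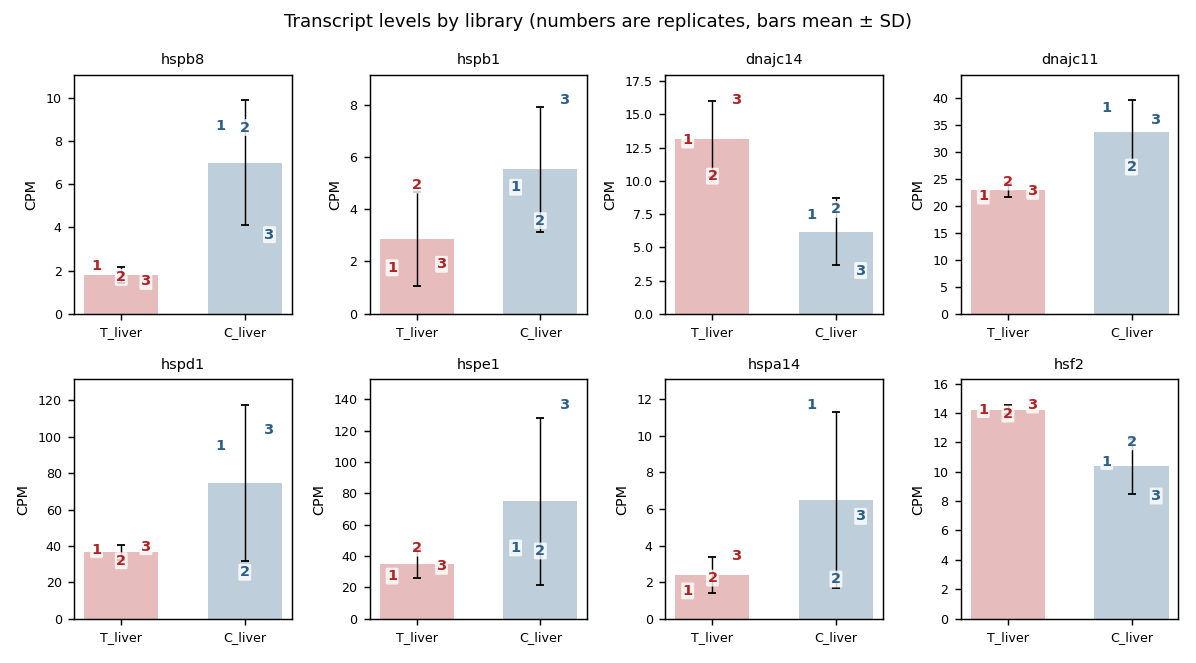
Transcript level in CPM (vertical axes, each from 0) of 8 chaperone genes in T_liver and C_liver. Bars are means with SD and digits mark the replicate. The groups do not overlap in *hspb8*, *dnajc14*, *dnajc11* and *hsf2*, while in *hspb1*, *hspd1*, *hspe1* and *hspa14* at least 1 library lies within the range of the other group.

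The mitochondrial chaperonin genes *hspd1* (HSP60) and *hspe1* (HSP10) encode the barrel and the lid of the folding chamber of the mitochondrial matrix. They lie head to head on scaffold NW_020847969.1, *hspd1* from 1162379 to 1167347 on the minus strand and *hspe1* from 1167757 to 1169854 on the plus strand, with 409 bp between them. *hspd1* had 37.9, 31.8 and 39.6 CPM in T_liver, against 95.0, 25.5 and 104 CPM in C_liver. The T_liver libraries lay close together, while C_liver replicates 1 and 3 were far above and C_liver replicate 2 was below them. *hspe1* had 27.1, 45.0 and 33.4 CPM in T_liver, against 45.1, 43.2 and 136 CPM in C_liver. Here only C_liver replicate 3 stood well above the T_liver libraries. The log2 fold changes of -1.04 and -1.09 (SE 0.49 each) passed the fold change threshold, but P was 0.0714 for *hspd1* and 0.0609 for *hspe1* in edgeR's test, and 0.4 and 0.2 in the exact permutation test.

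Both values depended on single C_liver libraries, and the DE calls also on the method. With all libraries kept, DESeq2 had both genes as DE lower. edgeR had *hspe1* but not *hspd1* as DE lower without the FPKM filter and with total counts for scaling. Neither gene was DE at a mean FPKM of at least 5, with the size factors of DESeq2 in edgeR, with limma or with a replicate block. Without C_liver replicate 3, *hspe1* had a log2 fold change of -0.32, and without C_liver replicate 2, *hspd1* had -1.45 and *hspe1* had -1.37, both then DE lower. *hspe1* was also DE lower without C_liver replicate 1, at -1.35. For *hspd1*, leaving out C_liver replicate 1 gave -0.82 and leaving out C_liver replicate 3 gave -0.72, both under the fold change threshold. The FPKM of *hspe1* was 3.29 to 6.51 times that of *hspd1* in the T_liver libraries and 2.19 to 7.80 times in the C_liver libraries, so the pair did not keep a fixed ratio. A further HSP10 gene, LOC113664044, had 21.8, 18.6 and 17.3 CPM in T_liver, against 18.4, 21.0 and 17.3 CPM in C_liver, which is a log2 fold change of 0.02 (SE 0.22). Of the other 4 HSP10 genes 3 had no count, and LOC113664052 had at most 35 counts in a library. Summed over all 7 genes of the class, the level was 91.3 ± 4.08 CPM in T_liver and 169 ± 83.9 CPM in C_liver (SD, n = 3 each).

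Other genes of mitochondrial proteins gave values in the same direction in part. The mitochondrial HSP90, *trap1*, had 42.7, 45.4 and 40.2 CPM in T_liver, against 46.0, 55.0 and 81.0 CPM in C_liver, with no overlap and a log2 fold change of -0.50 (SE 0.27). Of 12 listed genes for proteases, prohibitins and processing enzymes of mitochondria, all tested, 3 were higher and 9 lower in T_liver, and the median log2 fold change was -0.22 and no DE gene. The 3 with the highest level were *phb2*, *phb* and *pmpcb*, with log2 fold changes of -0.44, -0.92 and -0.36. *phb*, a prohibitin of the inner membrane, had 49.1, 50.3 and 45.0 CPM in T_liver, against 79.3, 60.8 and 133 CPM in C_liver. The groups did not overlap (SE 0.33, adjusted P = 0.676 in edgeR's test). Of the 12, 2 were lower without overlap, against 7.1% of all tested genes, and 1 was higher without overlap, against 5.96%. The 2 beside *phb* were chosen after their values were seen, in opposite directions. *pmpca*, a subunit of the peptidase that removes import signals, had a log2 fold change of -0.74 (SE 0.24), and *oma1*, a protease of the inner membrane, had 0.61 (SE 0.30), both with adjusted P = 0.676 by edgeR. *oma1* had 7.68, 5.37 and 5.13 CPM in T_liver, against 3.63, 4.68 and 3.56 CPM in C_liver.

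Most T-complex subunits had the same sign. All 8 subunit genes were tested, 7 of them were higher in T_liver, and their median log2 fold change was 0.40, but none was a DE gene. The median was 0.21 without T_liver replicate 2 and 0.61 without C_liver replicate 1, the lowest and highest values with 1 library left out, and *cct2* and *cct7* changed sign in some of these fits. *tcp1*, the alpha subunit, had 324, 344 and 293 CPM in T_liver, against 279, 210 and 190 CPM in C_liver. *cct6a*, the zeta subunit, had 146, 147 and 168 CPM in T_liver, against 139, 99.5 and 82.8 CPM in C_liver. In both, every T_liver library was above every C_liver library, with C_liver replicate 1 next to them. This held for 2 of the 8 subunits, against 5.96% of all tested genes. The log2 fold changes were 0.50 (SE 0.27) for *tcp1* and 0.52 (SE 0.28) for *cct6a*, with adjusted P = 0.676 for both by edgeR.

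In the other subunits the groups overlapped. *cct5*, the epsilon subunit, had 184, 190 and 152 CPM in T_liver, against 172, 109 and 97.0 CPM in C_liver. *cct4*, the delta subunit, had 219, 315 and 157 CPM in T_liver, against 190, 163 and 142 CPM in C_liver. Both had a log2 fold change of 0.48 (SE 0.30 and 0.33), and C_liver replicate 1 lay within the range of T_liver. *cct8* differed by 0.32, *cct2* by 0.09, *cct7* by 0.07 and *cct3* by -0.11. Summed over the 8 subunits the level was 1396, 1673 and 1271 CPM in T_liver, against 1424, 1036 and 952 CPM in C_liver. C_liver replicate 1 thus exceeded 2 of the T_liver libraries, and the means were 1447 ± 205 CPM in T_liver and 1138 ± 252 CPM in C_liver (SD, n = 3 each).

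The 8 subunits occur once in each ring, but their transcripts were not equal in level. On the FPKM scale *tcp1* was highest in 5 of the 6 libraries and *cct7* lowest in all 6. The ratio of the highest to the lowest subunit was 6.45, 6.68 and 6.05 in T_liver, against 5.28, 7.07 and 3.26 in C_liver, where C_liver replicate 3 was the most even library. Prefoldin, which passes nascent actin and tubulin to the T-complex, and the other listed partners were mixed in sign, and the difference from the T-complex was not tested. Of 11 listed genes, all tested, 3 were higher and 8 lower, with a median log2 fold change of -0.13 and no DE gene. The best expressed of them, *pfdn5*, *pdcl3* and *vbp1*, differed by -0.07, -0.16 and 0.32. The groups did not overlap in 1 of the 11, *uri1*, named after its values were seen, with 40.1, 40.1 and 35.5 CPM in T_liver, against 32.4, 31.1 and 20.8 CPM in C_liver (log2 fold change 0.46, SE 0.25). Over all tested genes, 5.96% were higher in T_liver without overlap.

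**Figure D4:**
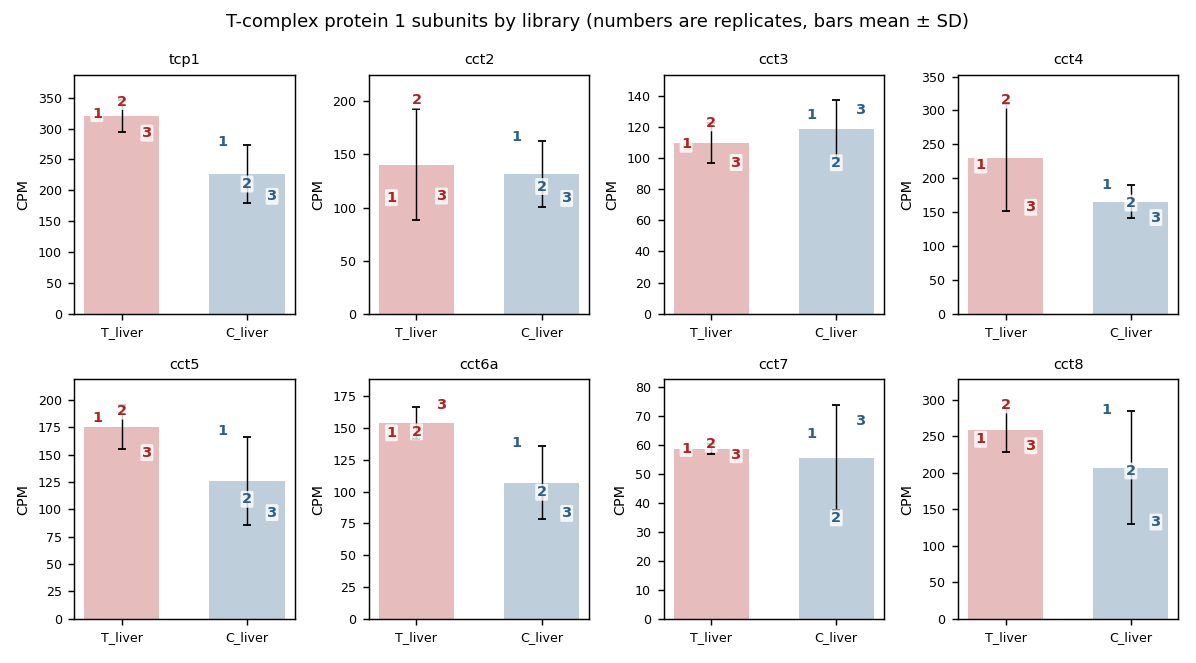
Transcript level in CPM (vertical axes, each from 0) of the 8 T-complex subunits in T_liver and C_liver. Bars are means with SD and digits mark the replicate. The T_liver libraries lie above all C_liver libraries in *tcp1* and *cct6a*, and C_liver replicate 1 is the highest or next to highest C_liver library in each subunit.

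The constitutive HSP70 genes varied strongly between libraries of the same group, and none was a DE gene. LOC113645389, a heat shock cognate gene, had 1163, 323 and 581 CPM in T_liver, against 590, 527 and 1429 CPM in C_liver. Its highest libraries were T_liver replicate 1 and C_liver replicate 3, and the log2 fold change was -0.30 (SE 0.57). LOC113645341, another heat shock cognate gene on the same scaffold, NW_020847763.1, 9643 bp away on the opposite strand, had 127, 36.5 and 67.1 CPM in T_liver, against 66.5, 51.4 and 149 CPM in C_liver. It ranked the T_liver libraries in the same order and again had C_liver replicate 3 highest. The FPKM of LOC113645389 was 8.24 to 8.67 times that of LOC113645341 in T_liver and 8.43 to 9.73 times in C_liver. The treatment of reads shared by similar genes is not given in the sources used here, so the levels of such near copies are uncertain.

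A further cognate gene, LOC113643689, ran the other way. It had 128, 164 and 524 CPM in T_liver, against 251, 190 and 97.0 CPM in C_liver. T_liver replicate 3 was far above every other library, and C_liver replicate 3 was lowest. The log2 fold change was 0.60 (SE 0.61), and without T_liver replicate 3 it was -0.30. The median log2 fold change of the 6 tested HSP70 genes was -0.20, and turned to 0.31 without C_liver replicate 3 and to 0.09 without T_liver replicate 2. Summed over all 11 HSP70 genes the level was 1062 ± 454 CPM in T_liver and 1148 ± 493 CPM in C_liver (SD, n = 3 each).

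*hspa14*, an unusual HSP70 that in human cells works on the ribosome together with the J-domain protein encoded by *dnajc2*, had the largest difference of this class. It had 1.52, 2.22 and 3.43 CPM in T_liver, against 11.7, 2.17 and 5.60 CPM in C_liver. C_liver replicate 2 lay within the range of T_liver. The log2 fold change was -1.44 (SE 0.63), with P = 0.0543 in edgeR's test and 0.3 in the exact permutation test. Without C_liver replicate 2 it was -1.85 and without T_liver replicate 3 it was -1.79, both then DE lower, while without C_liver replicate 1, the highest library, it was -0.70 and not DE. Its partner *dnajc2*, named after its values were seen, had 9.15, 9.31 and 11 CPM in T_liver, against 11.9, 4.92 and 16.7 CPM in C_liver. C_liver replicate 2 was again the lowest of its group, but here C_liver replicate 3 was the highest library. The log2 fold change of *dnajc2* was -0.18 (SE 0.42), with overlapping groups.

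Genes described simply as heat shock protein 70, the name of the stress-inducible form, were barely expressed. LOC113652236, LOC113652237 and LOC113652206 lie next to each other on scaffold NW_020847923.1 and had means of 0.528, 0.723 and 0.290 FPKM, under the limit for testing. LOC113652237 had 47, 177 and 19 counts in T_liver, against 30, 60 and 225 counts in C_liver. LOC113652236 had 78, 89 and 6 counts in T_liver, against 100, 24 and 62 counts in C_liver. LOC113652206 had 34, 35 and 6 counts in T_liver, against 29, 32 and 70 counts in C_liver. T_liver replicate 3 was the lowest library in all of them, and the groups overlapped.

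The HSP110 genes, LOC113654923 (24.1 FPKM) and LOC113647550 (5.62 FPKM), both described as heat shock 70 kDa protein 4-like, differed by 0.17 (SE 0.28) and -0.42 (SE 0.45) on the log2 scale. The more abundant of the tested cytosolic HSP90 genes differed little between the groups. *hsp90ab1*, the constitutive form, had 1242, 1297 and 1164 CPM in T_liver, against 1145, 1050 and 1467 CPM in C_liver. The T_liver libraries lay inside the range of C_liver, with a log2 fold change of 0.02 (SE 0.26). The HSP90 alpha gene LOC113655582 had 9.41, 10.4 and 13.3 CPM in T_liver, against 23.3, 11.1 and 7.63 CPM in C_liver. Its log2 fold change was -0.34 (SE 0.42), and lay between -0.63 and 0.24 without single libraries. *hsp90ab1* exceeded it by 96.4 to 146 times in T_liver and 54.3 to 213 times in C_liver on the FPKM scale. The adjacent LOC113655583, described as HSP 90-alpha 1, had no count in any library.

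*ahsa1*, which speeds up the ATPase of HSP90, had 4.57, 5.10 and 4.22 CPM in T_liver, against 6.57, 5.18 and 8.83 CPM in C_liver. The groups did not overlap, though T_liver replicate 2 and C_liver replicate 2 were nearly equal, and the log2 fold change was -0.57 (SE 0.30). Of 28 listed co-chaperones of HSP70 and HSP90, 24 were tested, 6 were higher and 18 lower in T_liver with a median of -0.13, and none was a DE gene. In 4 of the 24 all T_liver libraries lay below all C_liver libraries, against 7.1% of all tested genes. In 0 they lay above, against 5.96%. The best expressed were *fkbp5*, *st13* and *ptges3*, with log2 fold changes of -0.50 (SE 1.47), -0.68 (SE 0.37) and -0.31 (SE 0.22). *fkbp5*, a glucocorticoid-induced partner of HSP90 in mammals, had 37.2, 73.3 and 177 CPM in T_liver, against 8.85, 392 and 4.91 CPM in C_liver. Its C_liver libraries spanned the T_liver libraries on both sides.

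The heat shock factors themselves were expressed at a low level. *hsf2*, a factor active in development and stress, had 14.2, 13.9 and 14.5 CPM in T_liver, against 10.7, 12.0 and 8.35 CPM in C_liver. The T_liver libraries were almost equal and all above C_liver, with a log2 fold change of 0.46 (SE 0.23, adjusted P = 0.676 in edgeR's test). *hsf1*, the main switch of the heat shock response, had 10.3, 10.6 and 15.3 CPM in T_liver, against 12.5, 9.51 and 5.22 CPM in C_liver, with overlapping groups and a log2 fold change of 0.41 (SE 0.36). *hsf2bp*, which codes for a protein that binds HSF2, had a log2 fold change of -0.58 (SE 0.51), and the HSF4 gene LOC113652715 had no count.

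A large share of the genes found by the rule had 1 description in common, and their sequences were not compared. Heat shock factor 5, known in mammals from the testis, was the description of 31 of the 134 genes. They lay on 16 scaffolds, 22 of them on a scaffold with at least 1 other, and were 736 to 12039 bp long with a median of 3082 bp. No library held a count for 29 of them. The other two were LOC113651061, with 11 counts in C_liver replicate 1, and LOC113637613, with 4 counts in C_liver replicate 2. A count of 0 allows up to 3 counts, which is at most 0.0679 CPM in these libraries and covers counting error only. The gene *tcp11l1*, described as T-complex protein 11-like protein 1, was taken in by the wording of the rule but is not a chaperonin subunit, and it had a log2 fold change of 0.16 (SE 0.37).

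In several chaperone genes the same libraries, 1 of each group, were highest. In 10 of the 70 genes (14.3%), T_liver replicate 1 and C_liver replicate 3 were the highest libraries, against 9.20% of all tested genes and 64.0% of 25 listed chaperones and folding enzymes of the ER. This pattern was picked after the values were seen. *dnajc3*, which encodes the ER protein P58IPK, a partner of BiP, had 34.2, 11.7 and 4.76 CPM in T_liver, against 6.06, 9.29 and 39.1 CPM in C_liver. It was the most variable of the 70 tested chaperone genes, with a ratio of 8.21 between its highest and lowest library and a log2 fold change of -0.10 (SE 0.88). *hspa13*, a microsomal HSP70, had 7.17, 3.97 and 3.28 CPM in T_liver, against 2.73, 1.41 and 8.12 CPM in C_liver.

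Some further J-domain proteins of the ER had the same highest libraries, while others did not. The *dnajb9*-like gene LOC113653908 had 25.0, 8.60 and 6.99 CPM in T_liver, against 6.93, 7.36 and 16.3 CPM in C_liver. *dnajb11*, a further ER partner of BiP, had 16.0, 15.1 and 7.94 CPM in T_liver, against 9.70, 11.2 and 30.1 CPM in C_liver. Outside the pattern, *dnajc14* was lowest in C_liver replicate 3, and the *dnajb12*-like LOC113639892 was highest in T_liver replicate 2. BiP itself (78 kDa glucose-regulated protein, LOC113636550) and the ER HSP90 *hsp90b1* are outside the wording of the rule and were taken as the reference for this pattern. BiP had 286, 155 and 51.8 CPM in T_liver, against 43.4, 57.8 and 702 CPM in C_liver, and *hsp90b1* had 261, 244 and 69.0 CPM in T_liver, against 86.5, 153 and 637 CPM in C_liver. In both, C_liver replicate 3 was far above the other C_liver libraries and T_liver replicate 3 was the lowest of its group. Of the 25 listed ER genes, all tested, 5 were higher and 20 lower in T_liver, and the median log2 fold change was -0.57 and no DE gene. The best expressed of them, *pdia3*, *ppib* and the calreticulin gene LOC113655795, differed by -0.27, -0.64 and 0.11.

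**Figure D5:**
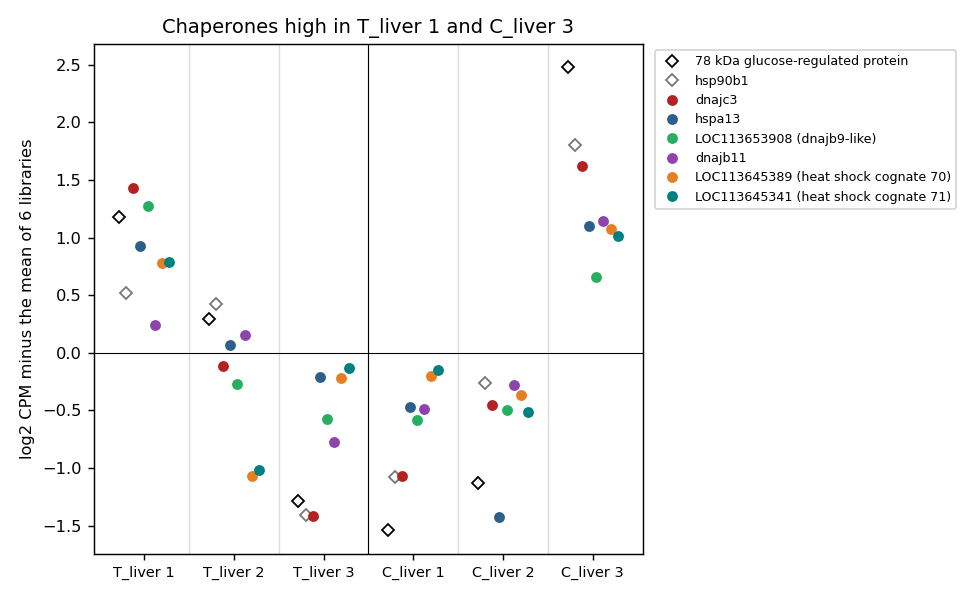
Log2 CPM of each gene minus its mean over the 6 libraries (vertical axis) by library (horizontal axis), for 6 chaperone genes (filled circles) and for BiP and *hsp90b1* (open diamonds). All 8 genes lie above their own mean in T_liver replicate 1 and in C_liver replicate 3, and no gene does so in T_liver replicate 3 or in C_liver replicates 1 and 2. The 6 chaperone genes were picked, after their values were seen, among those highest in T_liver replicate 1 and C_liver replicate 3. Their position there follows from this choice, and BiP and *hsp90b1* also have these as their highest libraries.

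C_liver replicate 2 was often the lowest. It was the lowest library for 14 of the 70 chaperone genes (20.0%), against 11.9% of all tested genes, among them *hspd1*, *dnajc2*, *cct7*, *hspa13* and *hsp90ab1*. C_liver replicate 3 was the highest library for 21 (30%, against 25.2% of all genes) and the lowest for 19 (27.1%, against 26.8%). Over the 70 genes the median ratio of the highest to the lowest library was 2.09, close to the 2.17 of all tested genes without a 0. A ratio of 4 was exceeded by 13 of the 70, and the share over all tested genes was not determined. The summed level of all 134 genes was 5071, 4455 and 4618 CPM in T_liver, against 4589, 3805 and 5354 CPM in C_liver, with overlapping groups and means of 4715 ± 319 CPM in T_liver and 4583 ± 775 CPM in C_liver (SD, n = 3 each).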

How the data were processed

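RNA-seq of liver was analysed in 3 T_liver and 3 C_liver libraries. After filtering, the authors mapped reads with HISAT to the reference genome of *T. fulvidraco*, and they deposited 1 table of 28288 genes with whole-number counts and with FPKM values, in which genes without a count are listed at 0.0001. The submitters' processing notes name HISAT2 2.0, StringTie 1.3.0, Bowtie 0.12.2 and the mouse build mm8 without a role. The counting tool, its handling of reads shared by genes, and the catfish build are items not given in the sources used here. The labels and the methods name different instruments. No column of the table was left unmapped to a library.

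Here, deposited counts of 11521 genes (mean FPKM 1 or more) were scaled by TMM (factors 0.855 to 1.14) and compared by edgeR's quasi-likelihood test (edgeR 4.0.16, R 4.3.3) without covariates. P values were adjusted over all tested genes by the Benjamini-Hochberg method, and the SE of a log2 fold change was derived from the F statistic. The common biological coefficient of variation was 0.426. The criteria for DE genes are those of the study. For named genes an exact 2-sided permutation test of mean log2 CPM was added. The procedure was tested on simulated data.

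Alternatives were no filter, a mean FPKM of at least 5, the size factors of DESeq2 or total counts for scaling, DESeq2 1.42.0, limma 3.58.1 on log2(FPKM + 1) and on log2(FPKM + 0.1), a replicate block, and leaving out each library. Named genes are the DE genes, the 5 with the smallest P in each direction, the 3 most abundant of each class, all T-complex subunits and heat shock factors, and, of each list of related genes, DE genes and the 3 most abundant. Others are said to have been picked after their values were seen. The chaperone genes, the classes and the lists were chosen with earlier results of these data known. No sequences are shown, as none was at hand for these genes.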

Additional observations from a re-analysis of the deposited data

How the results depend on the processing

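*hspb8* was a DE gene under each of the 13 alternatives in which it was tested, with log2 fold changes between -2.26 and -1.19, and had an unadjusted P of 4.14e-05 in DESeq2, which gave no adjusted P. *dnajc14* was a DE gene under 8 of 13 alternatives. The number of chaperone genes DE higher was 0 at a mean FPKM of at least 5, with total counts and with limma on log2(FPKM + 1) or log2(FPKM + 0.1), and 0 to 1 without single libraries. The number DE lower was 3 of 97 tested with no filter and 0 of 41 at a mean FPKM of at least 5. Of 70 tested, 2 were DE lower with total counts, 4 with DESeq2, 2 with limma on log2(FPKM + 0.1), and 1 to 4 without single libraries. The genes added were *hspa14*, *hspb1*, *hspd1*, *hspe1* and *hsf2bp*. At a mean FPKM of at least 5, where 41 chaperone genes were tested and neither DE gene was among them, the median log2 fold change was 0.079. Over all genes, DE higher and lower counts were 172 and 186 of 11521 in the main comparison. They were 357 and 417 of 20547 with no filter, and 100 and 75 at a mean FPKM of at least 5. With the same 11521 genes they were 167 and 197 with total counts and 271 and 250 with DESeq2. They were 83 and 107 with limma on log2(FPKM + 1), and 118 and 184 with limma on log2(FPKM + 0.1). With 1 library left out they lay between 157 and 356 higher and between 87 and 348 lower. They were 356 and 287 without T_liver replicate 2, 280 and 348 without C_liver replicate 2, 161 and 87 without C_liver replicate 3, and 167 and 278 without C_liver replicate 1, so the background shares of DE genes also depend on single libraries. Of 38 named chaperone genes, 12 changed the sign of the log2 fold change under at least 1 alternative. Of 522 values, 503 kept their side of the thresholds. The cause of these shifts was not tested. The replicate numbers gave no sign of pairing the libraries. Deviations from the group means correlated at -0.091, 0.041 and -0.131 between same-numbered libraries, and at -0.114 to 0.165 between the others. With 3 libraries per group a pairing by number could still be missed. With a replicate block 1 chaperone gene was DE higher and 1 DE lower. Genes with few counts are limited by counting error, and groups of 3 libraries by the spread between them. For *hspb8*, which had 76 counts or more in each library, the C_liver libraries ranged from 3.66 to 8.72 CPM.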

Other observations

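Immediate early genes, which respond within minutes to handling and other stimuli, were read beside the chaperones. Of 23 listed genes 10 were tested, 3 were higher and 7 lower in T_liver, and the median log2 fold change was -0.36. The AP-1 gene LOC113658727, which encodes a Jun protein, was the only DE gene among the 10, against 1.61% DE lower over all tested genes. It had 13.1, 13.8 and 10.8 CPM in T_liver, against 17.2, 25.6 and 83.6 CPM in C_liver. The groups did not overlap, and C_liver replicate 3 was far above the rest. The log2 fold change was -1.74 (SE 0.57, adjusted P = 0.676 in edgeR's test). In 2 of the 10 genes all T_liver libraries lay below all C_liver libraries, against 7.1% of all tested genes. In 0 they lay above, against 5.96%. Beside LOC113658727 this was LOC113657915, an immediate early response gene 5, named after its values were seen (log2 fold change -0.82, SE 0.26). The c-Fos-like gene LOC113651782 had 33.6, 57.2 and 0.468 CPM in T_liver, against 3.29, 21.0 and 96.7 CPM in C_liver. It was highest in C_liver replicate 3 and lowest in T_liver replicate 3. The phosphatase gene *dusp1* differed by 0.07 (SE 0.33) on the log2 scale.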
